A study of Mus musculus with 54 samples.

Results

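The CTCF sites of neural progenitor cells (NPCs) in which the Podxl RNA is cut short were compared with those of parental E14 NPCs. The sites came from 4 CTCF chromatin immunoprecipitation and sequencing (ChIP-seq) libraries, 2 of the Podxl SV40pA truncation line (PodxlpA) and 2 of E14 WT. Peaks of the 4 lists that overlapped by 1 bp or more were merged into 36907 sites, against 68126 sites when the lists of all 22 CTCF libraries of the series were merged. Members of interest were the switched sites, called in both libraries of one line and in neither of the other. There were 298 PodxlpA-only sites and 1793 E14-only sites, beside 12268 sites called in all 4 libraries.

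Both lines are E14TG2a mouse embryonic stem cells differentiated for 2 days into NPCs, and neither carries the CTCF degron or receives auxin or doxycycline. The PodxlpA line holds, on both alleles, an in-frame eGFP cassette followed by the SV40 polyadenylation signal, placed after the first coding exon of Podxl. It was derived as a homozygous clone after selection and sorting, so differences between this clone and its parent that have nothing to do with Podxl cannot be told apart from those of the truncation. The cassette also interrupts the Podxl coding sequence. Peak lists hold no expression, so neither the loss of the Podxl RNA nor the NPC identity could be checked from them. Only 2 libraries per line were compared, and their p-values measure only the spread between these samples.

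CTCF is a zinc finger protein that binds a long DNA motif and stops the cohesin ring as it extrudes chromatin, so that pairs of bound sites become the anchors of loops. It also binds RNA, and the truncation asked whether the RNA made from Podxl acts on CTCF near its own gene. Podxl encodes podocalyxin, a sialomucin of the cell surface that is best known from kidney podocytes and is also expressed by neural cells. A CTCF peak that is present in one line and missing in the other is the simplest sign of a change in binding, and it depends on how deeply each library could call peaks.

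The place of the insertion and the CTCF motifs of the gene are shown first, since they set where the RNA is cut short and where CTCF could bind in cis. Sequences are those of the RefSeq mm10 (GRCm38) reference. Podxl lies on chromosome 6 (mm10, 31519488 to 31563981, minus strand) and is 44494 bp long, with 8 exons. The guide used for the knock-in matched chromosome 6 once, on the minus strand at chr6:31563561-31563583 with its PAM, and spans the junction of exon 1 and intron 1. The capitals mark the PAM.
Podxl guide: taatggtgagtggacagccgCGG
The CTCF motif matches inside Podxl follow, each on its own strand with 5 flanking reference bases in lower case on either side and the 19-base match in capitals. All of them lie on the part of the gene downstream of the insertion.
Podxl intron 1, chr6:31556141-31556169, plus strand: caaagACCCTAGGGGGCGCTCTCCtcatc
Podxl intron 2, chr6:31528063-31528091, plus strand: gtaagCCAGAAGAGGGAGTCAGACgatta
Podxl intron 4, chr6:31525673-31525701, plus strand: agtgaCCAGTAGAGGGCAGCCACCtcctg
The match just past the 3′ end of the gene lies on the minus strand, unlike those in the introns.
Podxl 3′ flank, chr6:31519347-31519375, minus strand: ttccgCCAGTAGAGGGGGAAAGAGgagat

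The libraries differed in depth, and PodxlpA replicate 2 stood apart. The lists held 28405 and 15505 peaks in PodxlpA replicates 1 and 2, against 25890 and 28805 in E14 replicates 1 and 2. On the log2 scale the mean peak number of PodxlpA minus that of E14 was -0.38 (exact two-sided permutation p = 0.667; the smallest p that 2 against 2 libraries allow is 0.333). The lowest local background is the number of fragments expected to cover a position, and serves as a relative measure of depth. It was 0.565 and 0.347 in the PodxlpA libraries and 0.647 and 0.529 in the E14 libraries. A called summit held a median of 19 and 14 fragments in the PodxlpA libraries, against 20.0 and 18 in the E14 libraries. These medians leave out the strongest peaks, with −log10 p above 60. The libraries did not group by line. The Jaccard index, the share of sites called in either library that both called, was 0.475 between the PodxlpA replicates, 0.644 between the E14 replicates and up to 0.676 between lines, for PodxlpA replicate 1 with E14 replicate 2.

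Switched sites were a small part of the map in both directions. PodxlpA-only sites made up 0.807% of all sites and E14-only sites 4.86%. A further 6903 sites were called in every library except PodxlpA replicate 2, whereas 413 were called in every library except PodxlpA replicate 1. These are the sites just outside the definition, and 1 missing call decided their class. The gap between the directions narrowed when each list was cut to its 15505 peaks of highest −log10 p, the length of the shortest. There were then 702 PodxlpA-only sites (2.95% of 23760) and 791 E14-only sites (3.33%). Leaving out a library, so that 3 calls decide, moved both counts by more than 1.5 times in most cases. Without PodxlpA replicate 2 there were 3273 PodxlpA-only and 2206 E14-only sites, the one case where PodxlpA-only sites were more numerous. The counts were 748 and 8699 without PodxlpA replicate 1, 659 and 5003 without E14 replicate 1, and 1445 and 4118 without E14 replicate 2. The part of the short list of PodxlpA replicate 2 in the counts was not tested.

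The equal-number sites were mostly other sites. Of the 298 PodxlpA-only sites of the full lists 38 were also PodxlpA-only at equal peak numbers, and of the 1793 E14-only sites 170 were also E14-only. Conversely, 664 of the 702 PodxlpA-only sites at equal numbers (94.6%) overlapped a weaker peak in the full list of at least 1 E14 library, and 434 of them did so in both. Of the 791 E14-only sites at equal numbers, 621 (78.5%) overlapped a weaker peak of PodxlpA replicate 1. The list of PodxlpA replicate 2 is the same in both analyses. The sites that were switched by both measures therefore numbered 38 and 170. The cut lists are parts of the full lists, so these are the switched sites whose own peaks passed the cut. Their number reflects a filter on strength and is no second line of support.

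The switched sites were weak. The choice of sites favours this, because the same peak calls define the classes. Weak peaks are missed more easily, and calls in all 4 libraries favour strong sites. Fold enrichment is the ratio of the fragment pileup at the summit to the local background, after the same constant is added to both. It is therefore smaller than the plain ratio and shifts with depth where the background is low. The percentile ranks it among the sites of the same library. The PodxlpA-only sites had a median fold enrichment of 7.96 and 6.87 in the 2 PodxlpA libraries, at the percentiles 23.1 and 15.5. The E14-only sites had 8.54 and 8.15 in the 2 E14 libraries, at the percentiles 29.2 and 25.8. Sites called in all 4 libraries had medians of 14.1 and 9.94 in PodxlpA, and of 12.2 and 14.2 in E14. At the summit of a PodxlpA-only site there were a median of 14 and 10.0 fragments in the PodxlpA libraries, and at that of an E14-only site 15.0 and 13 in the E14 libraries.

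Of the 21377 sites called in both E14 libraries, 57.4% were called in both PodxlpA libraries (95% Wilson interval 56.7 to 58.1, which covers counting error only). PodxlpA replicate 1 alone held 89.7% of them and PodxlpA replicate 2 held 59.3%. For scale, 82.6% of the sites of E14 replicate 1 were called in E14 replicate 2, and 74.5% of those of E14 replicate 2 in E14 replicate 1. These are shares of all sites of a single library. The shares above are of sites that both E14 libraries called, so the values are not like for like. Retention followed strength. In the weakest of 4 equal bins of the sites by E14 percentile 73.1% were called in PodxlpA replicate 1 and 33.4% in PodxlpA replicate 2. In the strongest bin the shares were 99.4% and 87.5%, and 23 of 5344 sites (0.430%) were called in neither. In the other direction 87.2% of the 14071 sites called in both PodxlpA libraries were called in both E14 libraries.

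**Figure D1:**
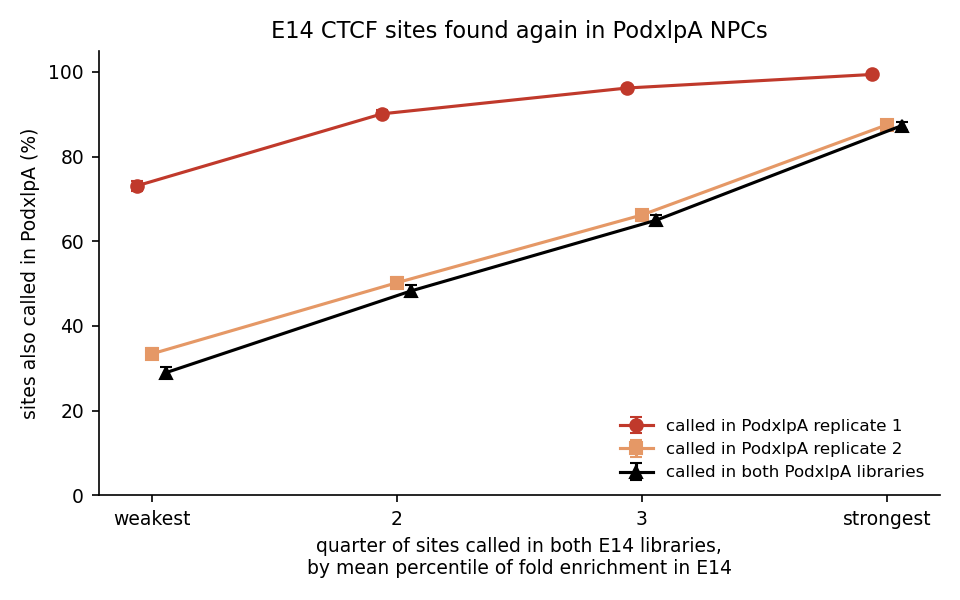
Share of the sites called in both E14 libraries (y axis, %) that was also called in PodxlpA replicate 1, in PodxlpA replicate 2 and in both, by 4 equal bins of the mean percentile of fold enrichment in E14 (x axis); bars are 95% Wilson intervals, many smaller than the symbols. PodxlpA replicate 1 runs between 73.1% and 99.4%, and PodxlpA replicate 2 between 33.4% and 87.5%.

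Chromosome 6, which carries Podxl, did not stand out from the other chromosomes. Of its 2370 sites 17 were PodxlpA-only (0.717%, interval 0.448 to 1.15) and 120 were E14-only (5.06%, interval 4.25 to 6.02), whereas on all other chromosomes together the shares were 0.814% and 4.84%. It ranked at 16 of 20 chromosomes (1 to 19 and X) for PodxlpA-only sites and at 8 for E14-only sites. With equal peak numbers it held 37 PodxlpA-only sites (2.21%, rank 18) and 64 E14-only sites (3.83%, rank 6). Retention on chromosome 6 was 60.6% (interval 58.1 to 63.1), against 57.1% elsewhere. The chromosome with the highest share of E14-only sites was X, with 6.63% in the full lists and 4.74% at equal numbers, and X also had the lowest retention of the 20, at 39.5%.

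**Figure D2:**
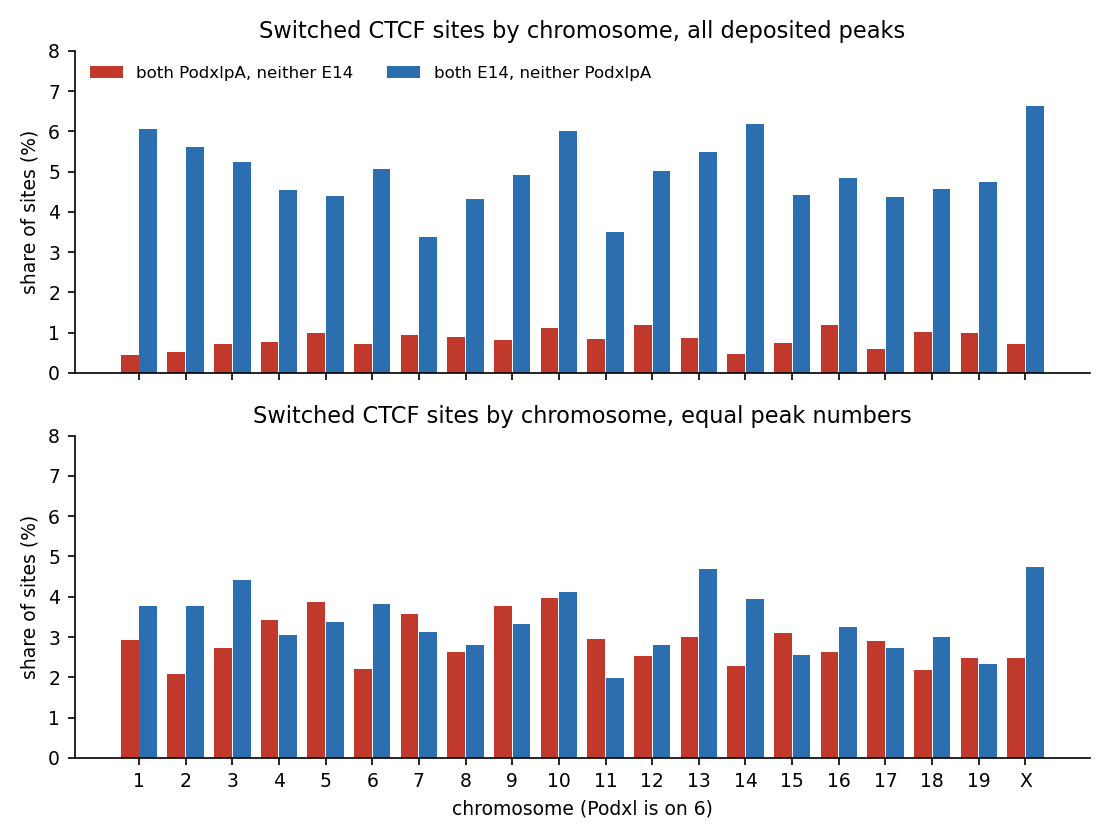
Share of sites on each chromosome (y axis, %) that was called in both PodxlpA and neither E14 library, and in both E14 and neither PodxlpA library, with all deposited peaks (top) and with each list cut to 15505 peaks (bottom). Chromosome 6 lies within the range of the others in both panels, and the E14-only share was highest on X, at 6.63% and 4.74%.

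Close to Podxl no site was switched. Within 0.1 Mb of the gene 0 of 9 sites were PodxlpA-only or E14-only, and within 0.5 Mb 0 of 29, which allows a share of up to 10.3%. The nearest switched site was E14-only and lay 537 kb away. Within 2 Mb 2 of 78 sites (2.56%) were E14-only and 0 were PodxlpA-only. Within 5 Mb 9 of 178 sites (5.06%) were E14-only and 1 (0.562%) was PodxlpA-only. These shares stood close to those of all sites, 4.86% and 0.807%. The highest share of E14-only sites lay between 10 and 20 Mb, 19 of 207 (9.18%, interval 5.95 to 13.9). With equal lists that interval held 4 of 136 (2.94%, interval 1.15 to 7.32).

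When the lists were cut to equal length, 2 switched sites lay within 0.5 Mb of Podxl, and both had a weaker peak in the full list of at least 1 library of the other line. The PodxlpA-only site lay 100.5 kb upstream, with a fold enrichment in the full lists of 13.8 and 10.6 in PodxlpA and 8.45 and 8.27 in E14. The E14-only site lay 329 kb away on the other side, with 9.54 in PodxlpA replicate 1, no call in PodxlpA replicate 2, and 15.4 and 12.4 in E14. Retention near the gene rests on few sites. Of the sites called in both E14 libraries, 9 of 17 (52.9%) within 0.5 Mb and 10 of 22 (45.5%) within 1 Mb were called in both PodxlpA libraries, beside 57.4% of all such sites. Between 0.5 and 1 Mb it was 1 of 5 (20.0%, interval 3.62 to 62.4).

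**Figure D3:**
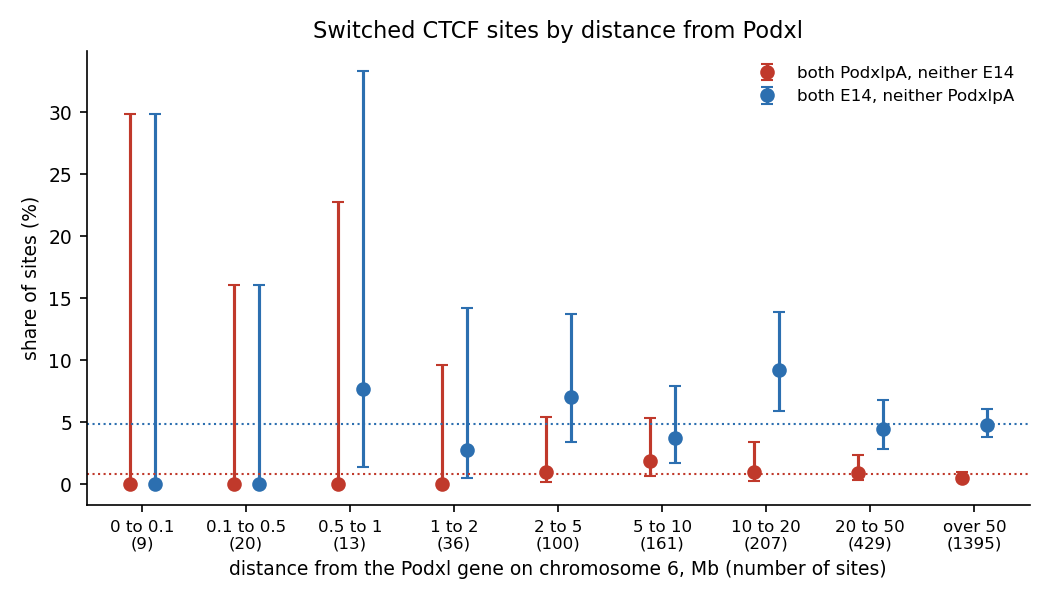
Share of chromosome 6 sites (y axis, %) that was called in both PodxlpA and neither E14 library, and in both E14 and neither PodxlpA library, by distance from the Podxl gene in Mb (x axis, number of sites in brackets); bars are 95% Wilson intervals and dotted lines the shares over all sites, 0.807% and 4.86%. Both shares are 0 within 0.5 Mb, where the intervals are wide because the bins hold 9 and 20 sites.

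At the gene itself the sites were shared between the lines or were called in single libraries. The site in intron 4 had a fold enrichment of 15.5 and 10.5 in PodxlpA NPCs, against 12.6 and 15.2 in E14 NPCs. It was called in all 4 libraries and the lines overlapped. The site 32 bp past the 3′ end of Podxl had 6.2 and 10.9 in PodxlpA NPCs, against 11.7 and 7.99 in E14 NPCs, so that each line had a high and a low library. The site in intron 2 had 16.0 in PodxlpA replicate 1 and 11.8 in E14 replicate 1, and was not called in replicate 2 of either line. The weak site in intron 1, 7.82 kb from the start site and the nearest to the insertion, was called in E14 replicate 1 only, at 7.22. None of these sites separated the lines.

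None of the sites around the gene was switched either. A site 75.5 kb upstream of Podxl, in an intron of the noncoding gene Gm43154, had 15.2 in PodxlpA replicate 1 and no call in PodxlpA replicate 2, against 10.4 and 14 in E14 NPCs. A site 96.8 kb upstream, in Gm13848, had 13.8 and no call in PodxlpA NPCs, against 9.96 and 8.91 in E14 NPCs. Both were missing from the library with the shortest list, and both were higher in PodxlpA replicate 1 than in either E14 library. A weak site 73.8 kb upstream had 5.6 in PodxlpA replicate 1 and 6.89 in E14 replicate 2. On the other side, in introns of Mkln1, the gene of the intracellular protein muskelin, a site 41.0 kb from Podxl was called in PodxlpA replicate 2 only, at 6.31. A second Mkln1 site, at 65.4 kb, had 7.83 and 7.08 in PodxlpA NPCs, against 9.11 and no call in E14 NPCs.

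Smc3, a core subunit of cohesin, was mapped in separate libraries of the same lines. At the site 75.5 kb upstream its fold enrichment was 15.8 and 16.7 in PodxlpA NPCs, against 17.2 and 23 in E14 NPCs. At the intron 2 site it was 12.5 in PodxlpA replicate 2 with no call in replicate 1, against 8.64 and 8.97 in E14 NPCs, so that the PodxlpA library with a call was the higher. At the intron 4 site Smc3 was called in PodxlpA replicate 2 at 11 and not in replicate 1, against 11.7 and 8.60 in E14 NPCs. At the site past the 3′ end it was called in neither PodxlpA library, against 6.94 and 7.76 in E14 NPCs. The Smc3 lists were shorter in PodxlpA, with 10005 and 13292 peaks against 15626 and 13875 in E14, and the part of this in the missing calls was not tested.

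**Figure D4:**
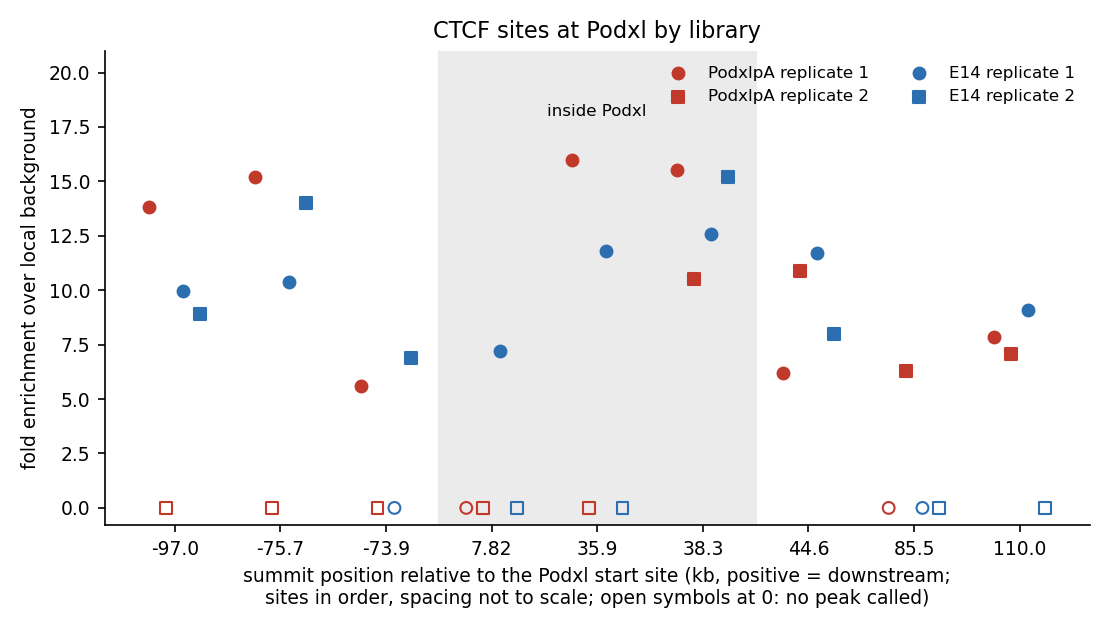
CTCF fold enrichment (y axis) of the 9 sites in Podxl or within 100 kb of it, in each library; the x axis gives the summit's distance from the Podxl start site in kb, in order and not to scale, and open symbols at 0 mark libraries without a peak call. The lines overlap at the sites called in all 4 libraries, and PodxlpA replicate 2 lacks the 3 upstream sites.

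The 9 E14-only sites within 5 Mb of Podxl were scattered. The nearest lay 23.8 kb upstream of Klf14, which encodes an imprinted Krüppel-like transcription factor, and had a fold enrichment of 10.5 and 11.5 in E14 NPCs. It was the only one of the 9 that was also switched at equal peak numbers. The next lay 1186 kb from Podxl, near BC049739, at 8.83 and 11. Another lay in an intron of Kcp, which encodes a modulator of bone morphogenetic protein signalling, at 6.37 and 8.78. A pair lay at Cnot4, a subunit of the CCR4-NOT deadenylase, with 11.4 and 9.15 in its intron and 6.94 and 9.13 outside the gene. One lay near Bpgm, an enzyme of red cell glycolysis, at 11.6 and 7.41, and one in an intron of Chrm2, a muscarinic acetylcholine receptor, at 7.67 and 9.81. The remaining pair, near the noncoding genes Gm13855 and Gm42931, had 7.36 and 8.82, and 9.11 and 6.54. All 9 held a CTCF motif match. The PodxlpA-only site in the same interval, in Gm14546 close to the start of the aldose reductase gene Akr1b3, had 5.51 and 6.59 in PodxlpA NPCs and no match.

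Ranked by mean percentile, the strongest switched sites elsewhere reached the middle and upper part of the lists. The strongest PodxlpA-only site lay between genes, 85.9 kb upstream of Habp2, a secreted serine protease gene, with a fold enrichment of 16.6 and 11.1 at 25 and 14 fragments. An intron of H60b, a ligand gene of an activating receptor of natural killer cells, held a site at 13.4 and 11.6. An intron of Fbxw8, which encodes a substrate receptor of a cullin ubiquitin ligase, held one at 15.1 and 9.79. A coding exon of Fbxo2, which encodes an F-box protein that recognizes glycoproteins in neurons, held one at 14 and 8.78, and an intron of Gdf10, a growth factor gene of the TGF-β family, one at 10.9 and 10.4. The other 5 of the 10 strongest lay near Gm833, H2-T3 and Sdk2 and in Tmem273 and Gm11496, between 11.5 and 13.4 in PodxlpA replicate 1. Their peaks passed the cut to equal peak numbers, so all 10 stayed PodxlpA-only there.

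Among E14-only sites the strongest lay 4.68 kb upstream of Mul1, a mitochondrial ubiquitin ligase gene, with 17.5 and 17.3 at 34 and 30 fragments. An intron of Nme5, a nucleoside diphosphate kinase family gene of ciliated cells, held a site at 21.3 and 15.3. An intron of Zdhhc17, which encodes a palmitoyltransferase, held one at 16.7 and 14.4, and 2 further E14-only sites lay in the same gene, which had 3 sites in all. A site 21.8 kb upstream of Pgk1, the phosphoglycerate kinase gene of glycolysis, had 16.8 and 14.3. The other 6 of the 10 strongest lay near Gm12853, Dis3l, AC164555.1 and 1700022I11Rik and in Ccdc62 and BC016579, between 14.6 and 19.6 in E14 replicate 1. All 10 held a motif match. Their peaks passed the cut to equal peak numbers, so all 10 stayed E14-only there. Among sites in genome order 2 adjacent pairs were PodxlpA-only and 112 adjacent pairs were E14-only, and the longest run held 3 E14-only sites, on chromosome 10. Such counts rise with the size of the set, here 298 PodxlpA-only and 1793 E14-only sites. No expected number was computed, so they show no clustering.

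The sequences under some of the strongest sites are shown next. Of the 10 strongest PodxlpA-only sites 9 held a match to the CTCF motif. The matches varied, and some are shown with the 19-base match in capitals.
Habp2, chr19:56201192-56201220, minus strand: tcccaACACCAGAGGGCGCTGTTTacata
H60b, chr10:22212443-22212471, minus strand: tgcttCCAGTAGGTGGCGCAGCAGcctgc
Gdf10, chr14:33934087-33934115, minus strand: actggCCACTTGGGGGCGCCTGCTaagag
Of the 10 strongest E14-only sites 4, shown here, had nearly the same 19 letters, while their flanks differed. Others, such as those near Dis3l and in Ccdc62, held matches with different letters.
Mul1, chr4:138429964-138429992, minus strand: ggaggCCAGAAGAGGGCATCGGGTaccct
Gm12853, chr4:118645416-118645444, plus strand: agtagCCAGAAGAGGGCATCCGATctcct
1700022I11Rik, chr4:42963653-42963681, minus strand: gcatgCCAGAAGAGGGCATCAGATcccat
Zdhhc17, chr10:110976259-110976287, minus strand: acaggCCAGAAGAGGGCACCAGATctcat
Of the 9 E14-only sites within 5 Mb of Podxl 2 carried the same letters, near Gm13855 and in Kcp.
Kcp, chr6:29499686-29499714, minus strand: acacaCCAGAAGAGGGCACCGGATtccat
Their common start CCAGAAGAGGGC was the most frequent 12-base start of a motif match over all sites, at 5698 of 33284 sites with a match, followed by CCAGCAGAGGGC at 998. As background, short interspersed elements of the rodent B2 family carry a CTCF motif and have spread it through the mouse genome. The family of each repeat was not annotated here, but the RefSeq genome file writes repeats in lower case, and 98.8% of the sites with the 12 letters had their match in such sequence.

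E14-only sites held repeat-borne motifs at a higher share than PodxlpA-only sites and than the sites called in all 4 libraries. The intervals cover counting error over sites only. Sites are not replicates of a line, and no test was made over them. A motif match lay in masked repeat sequence at 73 of 298 PodxlpA-only sites (24.5%, interval 20.0 to 29.7) and at 665 of 1793 E14-only sites (37.1%, interval 34.9 to 39.3), beside 17.4% of the sites called in all 4 libraries and 26.3% of all sites. The letters CCAGAAGAGGGC, on either strand within 50 bp of the summit, stood at 11.4% of PodxlpA-only and 24.4% of E14-only sites, beside 9.30% of those called in all 4, 15.6% of all sites and 0.480% of windows 1000 bp away. In the lists of equal length the masked shares were 17.4% and 35.9%. Leaving out each library in turn, the masked share lay between 17.0% and 29.3% for PodxlpA-only and between 30.4% and 40.1% for E14-only sites. At sites called in a single library it was 29.8% and 23.6% for PodxlpA replicates 1 and 2. For E14 replicates 1 and 2 it was 42.4% and 33.8%, so it also varied within a line.

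The retention of these sites is given by strength, as a description. Among sites called in both E14 libraries, those with a motif in masked repeat were called in both PodxlpA libraries at a lower share in each of the 4 bins of E14 strength. In the weakest bin the shares were 19.6% with a repeat-borne motif and 33.6% with another motif, in the next 37.2% and 51.7%, then 50.5% and 68.7%, and in the strongest 80.3% and 88.7%. Over all bins they were 43.6% and 62.3%. These bins share E14 libraries with the choice of sites, and no test was made over sites, which are not replicates. The share moved with a library as well. At equal peak numbers 18.5% and 18.2% of the sites of the PodxlpA libraries had a repeat-borne motif, against 22.0% and 19% in E14 replicates 1 and 2. E14 replicate 1 also had the widest peaks, with a median of 288 bp, against 240 and 239 bp in the PodxlpA libraries and 261 bp in E14 replicate 2. The part of peak width and of mapping in repeats in this difference was not tested.

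**Figure D5:**
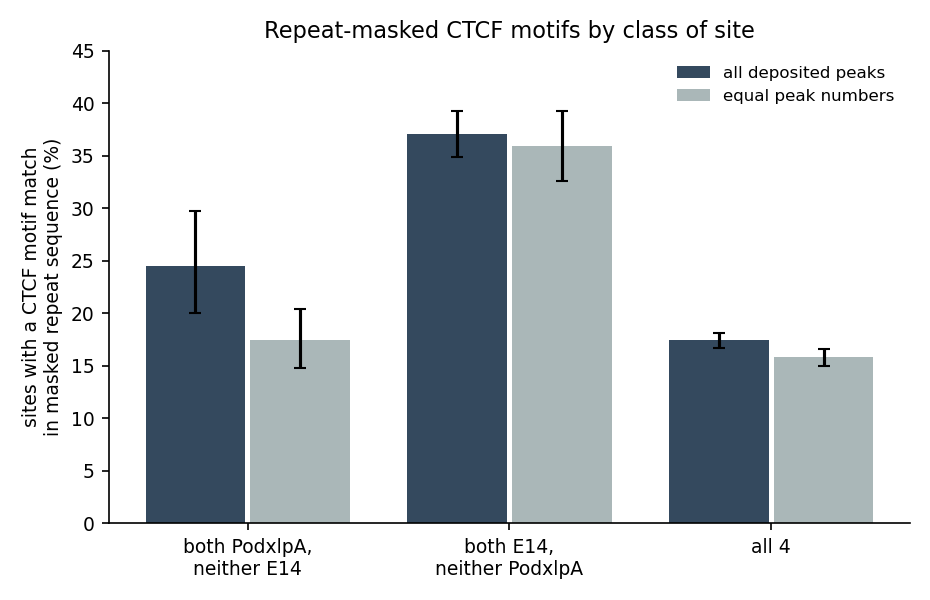
Share of sites (y axis, %) whose CTCF motif match lies in masked repeat sequence, for sites called in both PodxlpA and neither E14 library, in both E14 and neither PodxlpA library, and in all 4, with all deposited peaks and at equal peak numbers; bars are 95% Wilson intervals. The E14-only bars stand at 37.1% and 35.9%, above the PodxlpA-only bars at 24.5% and 17.4%.

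Other features of sequence and position differed as well. A CTCF motif match was present at 84.9% of PodxlpA-only sites (interval 80.4 to 88.5) and 91.1% of E14-only sites (interval 89.7 to 92.4), beside 95.4% of the sites called in all 4 libraries, 90.2% of all sites and 5.00% of windows 1000 bp away. The summit with 50 bp on either side had a median GC content of 54.5% at PodxlpA-only sites and 47.5% at E14-only sites, against 54.5% at sites called in all 4 and 51.5% at all sites. Summits within 1 kb of a transcription start made up 11.7% of PodxlpA-only and 5.35% of E14-only sites, against 14% of those called in all 4 and 11% of all sites, so that the PodxlpA-only sites stood near the general share. Summits in coding sequence made up 28 of 298 PodxlpA-only sites (9.40%, interval 6.58 to 13.2) and 16 of 1793 E14-only sites (0.892%, interval 0.550 to 1.44), against 3.42% of those called in all 4 and 3.00% of all sites. With equal lists the coding shares were 6.41% and 0.506%. E14 replicate 1 again stood apart, with 2.31% of its sites in coding sequence against 3.10% in E14 replicate 2, and 3.28% and 3.82% in the PodxlpA libraries. Without E14 replicate 1 the coding share was 5.81% for PodxlpA-only and 2.39% for E14-only sites, and without PodxlpA replicate 2 that of PodxlpA-only sites was 4.80%. The shares without PodxlpA replicate 1 were 6.55% and 1.56%. The part of the single libraries in these shares was not tested.

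Most switched sites were called in at least 1 of 14 CTCF libraries that took no part in choosing them. These were 2 of Grb10pA NPCs, 4 each of NPCs rescued with WT CTCF or with the ZF1 mutant, and 4 of ESCs rescued with WT CTCF, whereas the 4 libraries of ESCs rescued with the ZF1 mutant were not used here. The rescue lines are E14 cells in which the endogenous CTCF carries an AID2 degron and was depleted with 1 μM 5-Ph-IAA, while 1 μg/ml doxycycline induced the rescue protein, and the ZF1 mutant lacks an RNA-binding zinc finger. A PodxlpA-only site was called in a median of 5.00 of the 14 and an E14-only site in 3.00, beside 11 for the sites called in all 4 and 6 for all sites. Of the sites called in all 4, 2050 were weaker, at or below the upper quartile of E14-only sites in E14 percentile. Their median was 8.00. They were chosen by E14 strength and are not matched to PodxlpA-only sites. In the PodxlpA libraries their median percentiles were 45.6 and 31.6, against 23.1 and 15.5 for PodxlpA-only sites. No call in any of the 14 was made at 7 PodxlpA-only sites (2.35%) and at 146 E14-only sites (8.14%), beside 6.51% of all sites. In NPCs rescued with WT CTCF, between 26.8% and 48.7% of PodxlpA-only and between 5.91% and 38% of E14-only sites were called per library, beside 27.5% to 59.4% of all sites. In the longest list, that of ESCs rescued with WT CTCF (replicate 1, which also served to learn the motif), 90.3% and 79.8% were called, beside 86.7% of all sites. Both classes thus held sites with CTCF peaks in other cells of the series, and the share was higher for PodxlpA-only sites in each of these libraries, without a test of the difference.

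The Grb10pA line, in which an SV40pA cassette truncates the Grb10 RNA, had a peak in both libraries at 46.0% of PodxlpA-only and 21.9% of E14-only sites. Over all sites the share was 54.0%. It was 89.6% for the sites called in all 4 and 77.7% for the 2050 weaker of them. Set against the same E14 libraries, and so sharing these controls, Grb10pA NPCs had 1347 sites of their own (3.43% of 39286) and lacked 2149 E14 sites (5.47%). On chromosome 6 these numbers were 81 and 145. The E14-only sites of that comparison had a repeat-borne motif at 37.5% and those of the mutant line at 20.9%. Summits in coding sequence made up 0.791% of these E14-only sites and 8.54% of the Grb10pA-only sites. The median GC content was 45.5% and 56.4%. The repeat, coding and GC contrasts were therefore not particular to the PodxlpA line.

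Smc3 was called at switched sites at a lower share than over all sites, in each library. Over all sites the shares were 26.1% and 30.4% in PodxlpA and 40.3% and 34.3% in E14. At PodxlpA-only sites Smc3 was called at 8.39% and 25.2% in the PodxlpA libraries, against 19.5% and 19.5% in the E14 libraries. At E14-only sites it was called at 14.9% and 9.43% in the PodxlpA libraries, against 27.3% and 14.2% in the E14 libraries. At the sites called in all 4 CTCF libraries the shares were 47.2% and 54.9% in PodxlpA and 65.3% and 61.6% in E14. For the 2050 weaker of them they were 25.2% and 39.7% in PodxlpA and 40.4% and 42.3% in E14. In the PodxlpA libraries these 2050 sites were stronger than the PodxlpA-only sites. At PodxlpA-only sites the ranges of the lines overlapped, and at E14-only sites they did as well.

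Few genes of the lists chosen for this tissue carried a switched site. Neural progenitor genes held 10 sites, pluripotency genes 13, glial genes 12, mesoderm and endoderm genes 10, and genes of the podocalyxin family and its partners 18, and none of these was switched in either direction. Neuronal genes held 20 sites, of which 1 was PodxlpA-only, in an intron of Rbfox3, the gene of the neuronal nuclear antigen NeuN, with a fold enrichment of 7.98 and 6.90. Genes for CTCF and cohesin held 18 sites, of which 2 (11.1%) were E14-only. They lay in introns of Ctcf, at 8.24 and 9.34 and without a motif match, and of the cohesin subunit gene Stag1, at 7.56 and 7.19. Imprinted genes held 37 sites, of which 1 (2.70%) was E14-only, in an intron of Gnas, the gene of a stimulatory G protein subunit, at 14 and 12.1. Beside 4.86% and 0.807% of all sites, these counts are too small to set a list apart.

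The strength of the sites that both lines shared was compared last, by rank within each library, since the lists hold no read counts. Over the 12268 sites called in all 4 libraries limma called 0 higher and 0 lower in PodxlpA at an adjusted p below 0.05 (0% called; lowest adjusted p = 0.988). At an unadjusted p below 0.05 there were 516 sites (4.21%), and 29 of 915 on chromosome 6 (3.17%). With 2 libraries per line, 0 calls does not show that the sites did not differ. At the Podxl intron 4 site the difference was 0.08 ± 0.41 (SE) normal-score units (limma adjusted p = 1.00), and at the site past the 3′ end -0.18 ± 0.99 (limma adjusted p = 1.00). Within 5 Mb of Podxl 62 sites were called in all 4 libraries, with 32 differences above 0 and 30 below, and a median of 0.07.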

How the data were processed

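Per the methods of the study, the authors mapped read pairs with Bowtie2 (mm10), kept a mapping quality of at least 30, discarded duplicates with Picard, took out the blacklist with bedtools, and ran MACS2 on every library separately with q at 0.01. Tool versions and the input behind each list are not given in the sources used here. The deposited lists hold, for each peak, the fold enrichment (a ratio), the −log10 of the p-value and of the q-value, a display score and the summit. They hold no library totals. Fold and p together gave whole fragment numbers at the summit for peaks with −log10 p of at most 60 (100% of these solved, within 0.002 in −log10 p). Stronger peaks have no fragment number. In PodxlpA replicates 1 and 2 26802 of 28405 and 14954 of 15505 peaks had one. In E14 replicates 1 and 2 these were 24759 of 25890 and 27440 of 28805. The lowest background among the solved peaks served as relative depth.

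Peaks were merged into sites with Python 3.11.15 and annotated with GENCODE M21. The motif matrix was learned from the 2000 strongest peaks of 1 ESC library, and a match passed a score that 5% of windows 1000 bp away passed. Sequences are of the mm10 reference, not of the E14 strain. Fold enrichment ranks at shared sites were turned into normal scores and tested with limma 3.58.1, with Benjamini-Hochberg adjustment, on simulated data first. Peak numbers and similarity were tested by exact permutation. Named sites were the 10 of highest mean percentile in each direction, the switched sites within 5 Mb of Podxl, all sites within 100 kb, and switched sites at listed genes. The members, lists and rules were chosen with earlier results of these data known, and the repeat and coding shares were added after the sequences were seen. Alternatives were equal peak numbers, a q threshold of −log10 q of at least 5, summits ± 100 bp, no peak within 1000 bp, and leaving out each library.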

Additional observations from a re-analysis of the deposited data

How the results depend on the processing

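The counts of switched sites kept to within 1.5 times under the stricter q threshold, with summit windows and with no peak allowed within 1000 bp, on chromosome 6 too. At equal peak numbers there were 702 PodxlpA-only and 791 E14-only sites, 37 and 64 on chromosome 6, and 70.8% of E14 sites were retained. Leaving out each library in turn, PodxlpA-only sites numbered 659 to 3273 (39 to 181 on chromosome 6) and E14-only sites 2206 to 8699 (143 to 571), and the retained share ran between 46.7% (without E14 replicate 1) and 89.7% (without PodxlpA replicate 2). Part of this follows from asking for 3 libraries instead of 4. Without PodxlpA replicate 2, PodxlpA-only sites (3273) outnumbered E14-only sites (2206), and the mean log2 peak number of PodxlpA was 0.06 above that of E14, against values as low as -0.82 without the others. Library similarity, Jaccard within minus between lines, was -0.0056 (one-sided exact permutation p = 0.667), 0.0008 at equal peak numbers, 0.1730 without PodxlpA replicate 1, and as low as -0.0988 without the others; the cause was not tested.

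The relative enrichment test gave 0 calls under each alternative that kept all 4 libraries. In these fits 405 to 540 sites had an unadjusted limma p below 0.05. With 2 libraries per line, 0 calls says little about small or large shifts. The replicate numbers pair nothing in the labels, and same-numbered libraries deviated together at r = 0.05 over sites, so the replicate block is given here only. With the replicate block limma called 0 sites (lowest adjusted p = 0.906), with 535 at an unadjusted p below 0.05. PodxlpA replicate 2 had the fewest peaks and the lowest background, and their part in the missing calls was not tested.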
